A study of Mus musculus with 71 samples.

Results

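Gene expression that sets the striatum of control mice apart from 3 other brain regions was measured on 16 arrays. They were the 4 striatum arrays and the 12 arrays of hippocampus, hypothalamus and cortex, 4 per region, of the control mice of the GLP cohort, out of 71 arrays in all. The arrays were chosen by their labels, and every gene with 1 symbol in the platform annotation was considered: 18193 genes were named and 12090 were tested. The control mice were GLPfl/fl, with both copies of the GLP gene floxed and no Cre transgene in their genotype as labelled, so each region came from animals in which the enzyme was left in place. GLP and its partner G9a are methyltransferases that place a silencing mark on histone H3. Mice were 10 to 14 weeks old, and controls were littermates matched to mutants for age and sex. Repeat comparisons used the same regions of G9afl/fl controls, also without Cre, with 4 striatum, 3 hippocampus, 4 hypothalamus and 2 cortex arrays, and of Camk2a-Cre; GLPfl/fl mutants, 4 arrays per region, in which Cre is driven by a promoter of postnatal forebrain neurons. Polyribosome-bound mRNA came from controls that carried floxed G9a with a Drd1-bacTRAP or a Drd2-bacTRAP transgene, which tags ribosomes of D1-class or D2-class neurons, in 3 samples of each kind pooled from 5 mice per sample.

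The striatum is the input nucleus of the basal ganglia. Nearly all of its neurons are GABA-releasing projection neurons that receive glutamate from cortex and thalamus and dopamine from the midbrain. One class carries the D1 receptor, which raises cyclic AMP, together with substance P and dynorphin, and the other carries the D2 receptor, which lowers cyclic AMP, together with enkephalin. Local interneurons, among them large cholinergic cells, make up the remainder, and principal glutamate neurons of the cortical kind are absent.

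All values were array intensities whose log2 is 0 at the median of the array, so a value below 0 lies under that median. They can be compared between arrays for 1 gene but not between genes. Striatum arrays correlated with each other at 0.9919 to 0.9958 over all probe sets. They correlated with hippocampus arrays at 0.9749 to 0.9841, with cortex arrays at 0.9689 to 0.9762 and with hypothalamus arrays at 0.9587 to 0.9735. Some arrays stood apart within their group. Striatum arrays 3 and 4 were higher than arrays 1 and 2 in genes of cortical projection neurons: the mean log2 level of 18 such genes ran from 2.50 to 3.37 over the striatum arrays, against 4.43 to 4.69 in cortex. Neurod6, a transcription factor of cortical and hippocampal glutamate neurons, read 0.40, 0.02, 2.49 and 2.55 in striatum arrays 1 to 4. Striatum arrays 1 and 2 and hippocampus arrays 1 and 4 were higher in genes of choroid plexus and ependyma, whose mean over 10 genes ran from 0.73 to 2.37 in striatum and from 1.65 to 3.30 in hippocampus. The folate receptor gene Folr1, a choroid plexus marker, read 0.88, 1.30, -1.37 and -1.62 in striatum. Hypothalamus arrays varied in midbrain dopamine neuron genes: the dopamine transporter gene Slc6a3 read 1.25, 4.20, 5.63 and 3.43. The part of dissection or neighbouring tissue in these values was not tested. Where striatum arrays 1 and 2 alone, or 3 and 4 alone, moved the difference of a named gene by over 1.5 times, both values are given. The label held for the striatum arrays, since the mean of 27 tested genes shared by striatal projection neurons was 6.23 to 6.41 in striatum and at most 4.77 in any other array.

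**Figure D1:**
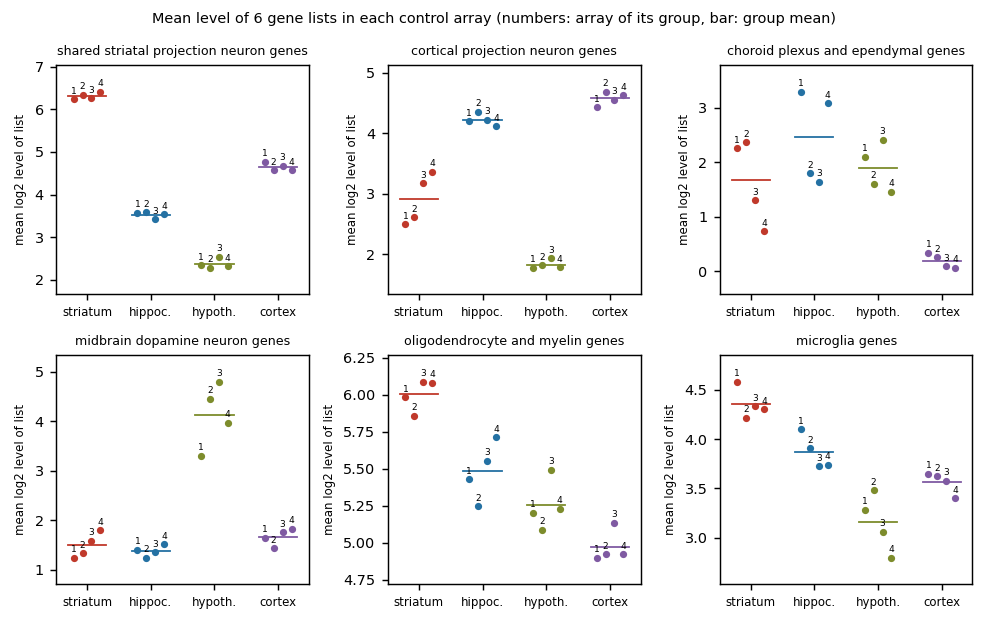
Mean log2 level over array median (vertical axis) of 6 gene lists in each of the 16 control arrays, by region; points are arrays, numbered within their group, and bars are group means. Shared striatal projection neuron genes ranged from 6.23 to 6.41 in striatum, while cortical genes ranged from 2.50 to 3.37 and choroid plexus genes from 0.73 to 2.37 over the same 4 arrays.

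Striatum differed from the mean of the other 3 regions in a large share of genes. With limma and Benjamini-Hochberg adjustment at 0.05, 3534 genes were higher in striatum (29.2% of the 12090 tested) and 2784 were lower (23%), 52.3% in either direction. Centring each array on the median of the genes tested moved this split to 2962 higher and 3620 lower. These backgrounds are high, and the counts of list members that follow are to be read against 29.2% and 23%. In 916 genes (7.58%) all 4 striatum arrays lay above all 12 others, and in 473 (3.91%) all 4 lay below, all of them called. Such genes are called separated, and counts of separated list members are to be read against 7.58% and 3.91%. The difference exceeded 2-fold upward for 531 genes and downward for 368 when values below the array median were set to it, which bounds folds of genes that are off in 1 region. At least 8-fold rises on that scale numbered 33. Against single regions, striatum was higher than hippocampus in 2443 genes (20.2%) and lower in 2710 (22.4%), which is 42.6% in either direction. It was higher than hypothalamus in 4450 (36.8%) and lower in 3809 (31.5%), 68.3% together, and higher than cortex in 4378 (36.2%) and lower in 3017 (25%), 61.2% together. These 3 comparisons share the striatum arrays. The p-values measure the spread between arrays that the labels call biological replicates, and the sources used here leave unstated whether 1 animal gave all 4 regions.

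**Figure D2:**
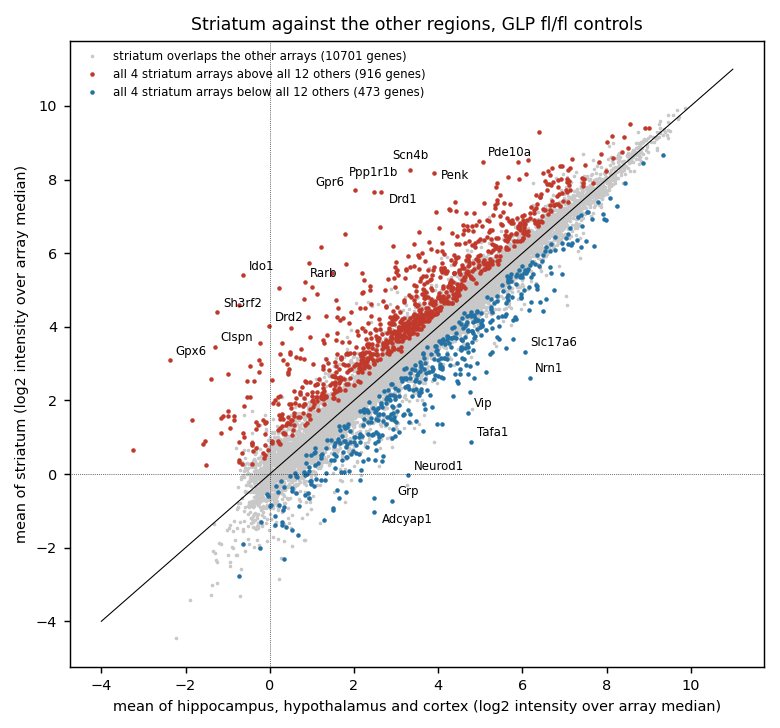
Mean log2 level in striatum (vertical axis) against the mean of hippocampus, hypothalamus and cortex (horizontal axis), 1 point per gene, in units of log2 intensity over array median; the line marks equality. The 916 genes whose 4 striatum arrays lay above all others lie above the line, Gpr6, Ppp1r1b, Drd1 and Ido1 among the farthest, and the 473 below it include Tafa1, Nrn1 and Grp.

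Genes shared by both classes of projection neuron formed the clearest group. Of 27 tested members, 26 rose (96.3%, against 29.2% of all genes tested) and 1 fell, with a median log2 difference of 2.74 against 0.04 over all genes. In 23 of the 27 all striatum arrays lay above all others, against 7.58% of all genes tested. Ppp1r1b encodes DARPP-32, the phosphatase inhibitor that relays dopamine signals. Its log2 level was 7.48, 7.78, 7.71 and 7.65 in striatum and 5.29, 4.72, 5.10 and 4.73 in cortex. It was 2.73, 2.51, 2.35 and 2.71 in hippocampus and -0.45, -0.01, 0.13 and 0.05 in hypothalamus. Ppp1r1b was thus highest in every striatum array and at the array median in hypothalamus, and its difference was 5.17 ± 0.12 (SE, n = 4 per region), at least 35.0-fold, with adjusted p = 9.83e-16. Scn4b, a sodium channel beta subunit, read 8.32, 8.29, 8.20 and 8.25 in striatum, with a difference of 4.93 ± 0.19 or 30.6-fold (adjusted p = 5.19e-13). In the other regions Scn4b spanned a wide range, from 0.74 in 1 hypothalamus array to 6.19 in 1 cortex array. Syndig1l, a membrane protein also called capucin, read 5.42, 6.34, 6.25 and 6.65 in striatum and at most 2.84 elsewhere, at least 30.7-fold higher. Rgs9, a GTPase-activating protein that shortens signals of dopamine receptors, read 5.92, 5.88, 5.53 and 5.46 in striatum and 0.62 to 3.38 elsewhere, 14.7-fold higher. Lrrc10b, a leucine-rich repeat protein, rose at least 17.3-fold, and Actn2, an actin-binding protein of dendritic spines and muscle, at least 13.3-fold. Both were separated from every other array.

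Further members of that list also rose. Pde10a, the phosphodiesterase concentrated in these neurons, read 8.17, 8.36, 8.70 and 8.71 in striatum and 3.86 to 6.32 elsewhere, 10.8-fold higher. The kinase gene Dclk3 rose 6.70-fold and Strip2, a component of a phosphatase complex, 7.11-fold. Bcl11b, a transcription factor needed for projection neurons to mature, rose 5.38-fold: its striatum arrays read 8.13, 8.17, 8.08 and 7.93, above hippocampus at 6.90 to 7.17, and hypothalamus was lowest at 2.91 to 3.71. Wnt10a, a secreted signalling protein, was the member that went the other way. It lay below the array median in all striatum arrays at -0.74, -1.24, -0.87 and -0.25 and fell by 0.87 on the log2 scale (adjusted p = 0.000708), and without cortex its difference was -0.40 and was not called (adjusted p = 0.1).

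**Figure D3:**
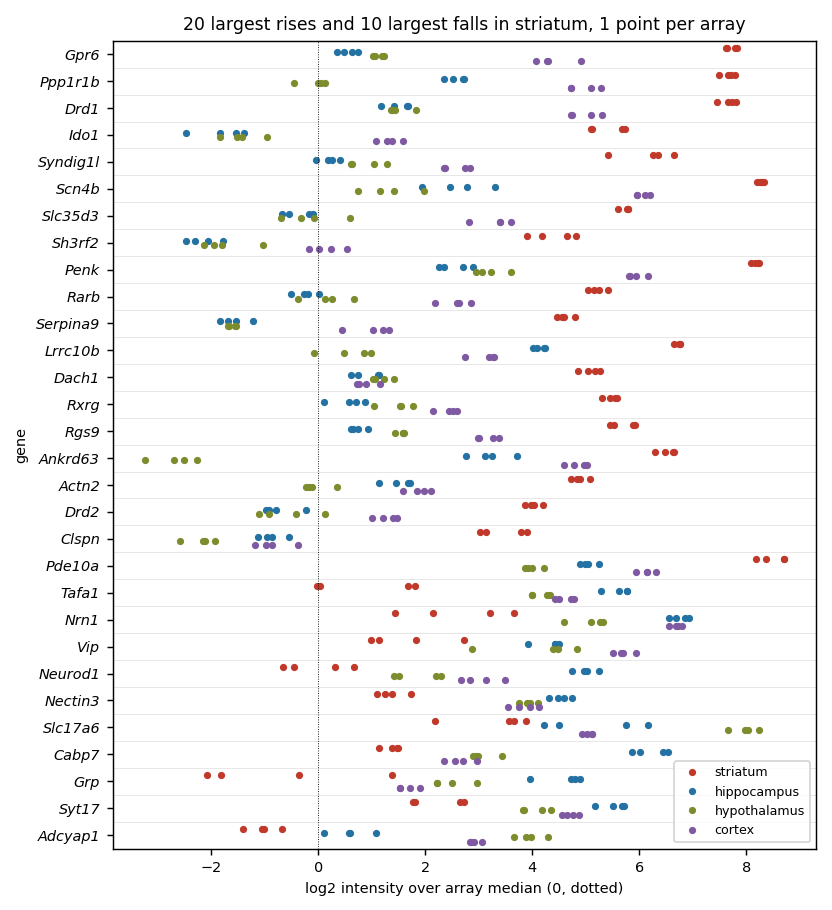
Log2 level over array median (horizontal axis; dotted line, the median) of the 20 largest rises and 10 largest falls in striatum, ranked by fold with values below the median set to it; each point is 1 array, coloured by region. The 30 genes were picked among those whose 4 striatum points lie clear of the other 12, and for most rises cortex points come next.

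Both classes of projection neuron were represented among the largest differences. Of 8 tested D1-class genes 8 rose, and of 6 tested D2-class genes 6 rose, with median differences of 2.34 and 3.11. Gpr6, an orphan receptor of D2-class neurons, had the largest difference when values below the array median were set to it. It read 7.62, 7.83, 7.64 and 7.78 in striatum and 4.91, 4.30, 4.28 and 4.06 in cortex. It read 0.63, 0.35, 0.74 and 0.48 in hippocampus and 1.06, 1.20, 1.03 and 1.22 in hypothalamus. The difference was 5.69 ± 0.11 (SE, n = 4 per region) or 51.8-fold, with adjusted p = 2.27e-16. Drd2, the D2 receptor, read 3.86, 4.20, 3.97 and 4.04 in striatum, at most 1.47 in cortex and near or below the array median elsewhere. It was at least 12.0-fold higher (adjusted p = 3.54e-12). Penk, the enkephalin precursor, read 8.16, 8.09, 8.21 and 8.23 in striatum, 5.81 to 6.16 in cortex and 2.26 to 3.61 elsewhere, 19.3-fold higher. Gucy1a1, a subunit of the nitric oxide receptor guanylate cyclase, rose 4.54-fold, and 1 striatum array at 6.26 came close to cortex at 6.09. The kainate receptor subunit Grik3 rose 2.27-fold on the mean, but its striatum arrays (4.36 to 4.78) overlapped cortex (4.41 to 4.72).

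Among D1-class genes, the D1 receptor gene Drd1 read 7.73, 7.80, 7.45 and 7.65 in striatum and 5.31, 4.74, 5.10 and 4.73 in cortex. It read 1.18 to 1.68 in hippocampus and 1.36 to 1.82 in hypothalamus, with a difference of 5.01 ± 0.12 (SE) or 32.2-fold (adjusted p = 1.53e-15). A second probe set of Drd1 gave 4.72. Slc35d3, a nucleotide sugar transporter needed for D1 receptor trafficking, read 5.61, 5.78, 5.76 and 5.78 in striatum and at least 24-fold lower on average elsewhere. Pdyn, the dynorphin precursor, read 3.18, 3.46, 2.96 and 3.39 in striatum, 1.63 to 2.00 in cortex and below the array median in every hippocampus and hypothalamus array. Tac1, the substance P precursor, read 8.21, 7.94, 8.14 and 8.33 in striatum and 7.04 to 7.38 in hypothalamus, a 4.17-fold difference from the mean of the regions, with hippocampus lowest at 3.81 to 4.40. The homeobox gene Isl1 rose by 2.62 on the mean (adjusted p = 5.59e-05) without separating: hypothalamus reached 5.20, 5.23, 4.44 and 5.05 against 4.88, 4.51, 4.67 and 4.58 in striatum. Ebf1, a transcription factor of the D1 class, was separated and at least 3.36-fold higher.

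The 250 bases before the RefSeq transcription start (build GRCm38.p6) of 3 of these genes are shown because they carry motifs bound by factors that answer to cyclic AMP, the messenger that both dopamine receptors change. Capitals mark motif letters. Windows of the same length before Drd1, Drd2 and Pdyn held none of the motifs named here or below. Gpr6 (chr10:41072291-41072540, minus strand) holds the full cyclic AMP response element TGACGTCA. Slc35d3 (chr10:19851460-19851709, minus strand) holds its short form TGACG, read on the opposite strand as CGTCA. Tac1 (chr6:7554811-7555060, plus strand) holds CGTCA in 2 places and, between them, the homeodomain core TAATTA.
Gpr6: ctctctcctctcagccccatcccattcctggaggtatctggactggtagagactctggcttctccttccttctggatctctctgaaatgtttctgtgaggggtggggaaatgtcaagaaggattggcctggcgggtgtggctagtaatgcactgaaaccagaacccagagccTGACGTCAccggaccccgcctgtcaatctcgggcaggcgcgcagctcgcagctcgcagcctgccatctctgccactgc
Slc35d3: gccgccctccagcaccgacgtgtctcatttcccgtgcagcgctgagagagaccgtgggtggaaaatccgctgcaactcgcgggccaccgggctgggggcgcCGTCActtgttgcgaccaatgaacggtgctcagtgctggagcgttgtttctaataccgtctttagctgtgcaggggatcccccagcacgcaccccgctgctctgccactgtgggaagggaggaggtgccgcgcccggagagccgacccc
Tac1: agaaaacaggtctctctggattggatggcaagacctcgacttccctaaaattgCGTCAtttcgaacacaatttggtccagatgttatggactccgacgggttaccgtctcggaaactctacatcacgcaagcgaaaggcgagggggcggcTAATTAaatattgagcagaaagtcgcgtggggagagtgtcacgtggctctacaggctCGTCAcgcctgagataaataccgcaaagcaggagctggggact
Over all separated genes these motifs were about as common as in other promoters. On either strand, TGACGTCA was in 2.17% of 1013 promoters of 716 of the 916 separated genes, against 2.55% of 12722 promoters of genes tested and 1.55% of all 32851 promoters in the table. TGACG, which the full element contains, was in 21.6% against 26.3%. In 17 promoters of 14 of the 20 largest rises, TGACG was in 2 (11.8%) and TGACGTCA in 1 (5.88%). For the other motifs the shares of the separated genes and of all genes tested follow. The nuclear receptor motif AGGTCA was in 9.38% against 10.5%, and the palindromic site of EBF factors in 0.494% against 0.967%. TAATTA was in 3.55% against 2.41% and the TATA box TATAAA in 6.81% against 6.55%. A match describes letters in this window only.

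Signalling between the dopamine receptors and cyclic AMP was shifted toward particular members of each family. Of 46 tested genes of dopamine and cyclic nucleotide signalling, 30 rose (65.2%, against 29.2% of all genes) and 12 fell (26.1%, near the 23%). Their median difference was 1.14. The stimulatory G protein of striatum is Golf: its alpha subunit gene Gnal read 6.64, 6.65, 6.49 and 6.74 in striatum and 3.79 to 5.41 elsewhere, 4.03-fold higher, and its gamma subunit Gng7 was 9.05-fold higher. Gnas, the alpha subunit of the general stimulatory G protein, went the opposite way. It read 6.77, 6.69, 6.99 and 7.13 in striatum and 7.31 to 8.31 elsewhere, 2.13-fold lower (adjusted p = 1.14e-07), with every striatum array below every other. Among adenylyl cyclases, Adcy5 rose 5.71-fold, reading 7.79, 8.17, 7.88 and 7.77 in striatum. With all its probe sets averaged the log2 difference of Adcy5 was 0.81 in place of 2.51. In contrast, the calcium-stimulated Adcy8 fell 2.99-fold. The cyclic AMP-dependent kinase subunit Prkar2b rose 2.55-fold, and Prkg1, a cyclic GMP-dependent kinase, fell 1.99-fold.

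Phosphodiesterases break cyclic nucleotides down. Of 17 tested, 9 rose (52.9%) and 4 fell (23.5%, near the 23% of all genes), with a median of 0.49. After Pde10a the largest rises were in Pde1b (7.98-fold), Pde7b (6.39-fold) and Pde1c (3.42-fold), each separated from all other arrays. Pde1a fell 3.03-fold on the mean, with striatum at 3.02, 2.58, 3.39 and 3.72, overlapping hypothalamus at 3.33 to 3.93. Of 17 RGS family genes 8 rose (47.1%, against 29.2% of all genes) and 4 fell (23.5%, near the 23%). Besides Rgs9, the separated members included Rgs4 (3.10-fold) and Rgs8 (2.46-fold), and Gnb5, the beta subunit that stabilises Rgs9 protein, rose 3.14-fold. Rasd2, a small GTPase also called Rhes, rose 7.71-fold. Ptpn5, the tyrosine phosphatase STEP, rose 4.57-fold, and Arpp21, a substrate of the cyclic AMP-dependent kinase, 7.44-fold. Arpp21 read 9.22, 9.22, 9.28 and 9.48 in striatum and 8.09 to 8.39 in cortex, so that most of its difference came from hippocampus (5.92 to 6.28) and hypothalamus (4.67 to 5.06).

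Transcription factors of the ganglionic eminence, the embryonic source of striatal neurons, were mostly higher in the adult tissue. Of 23 tested, 19 rose (82.6%, against 29.2% of all genes) and 1 fell, with a median of 2.23. In 16 all striatum arrays lay above all others, against 7.58% of all genes. Some of its members also stand on the lists above and below, among them Isl1, Ebf1, Bcl11b and Rarb. Foxp1 read 6.25, 6.12, 6.08 and 6.05 in striatum and 4.95 to 5.15 in cortex, 4.94-fold higher than the mean of the regions. Foxp2, its relative, read 5.64, 5.62, 5.69 and 5.52 and was at least 5.97-fold higher, with hippocampus scattered between -0.89 and 2.11. The homeobox genes Meis2 and Meis1 rose 6.01-fold and 5.12-fold, and Dlx5 at least 4.95-fold. Dlx6 lay above the array median in striatum, at 1.31, 1.41, 1.26 and 0.99, and in 1 other array, a cortex array at 0.01. Dlx6 met the filter on low values (at least 4 arrays above the median) through striatum, so its low values elsewhere describe the selection. Pou3f4 rose at least 5.04-fold, and the zinc finger gene Zfp503 4.71-fold. Dlx1 was the member that fell, by 0.77 (adjusted p = 0.00197). Its difference was -1.09 with striatum arrays 1 and 2 alone, and with arrays 3 and 4 alone it was -0.44 and was not called. Across 25 tested homeobox genes, chosen as whole families such as Hox, Dlx, Meis, Lhx and Pou, 14 rose and 4 fell.

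Retinoic acid binds RAR and RXR receptors, and striatum is known for 1 pair of them. Rarb read 5.42, 5.24, 5.04 and 5.15 in striatum, 2.18 to 2.86 in cortex and around the array median elsewhere, at least 19.3-fold higher (adjusted p = 1.11e-13). Rxrg read 5.45, 5.54, 5.31 and 5.58 in striatum and at most 2.59 elsewhere, 15.8-fold higher. Crabp1, a cytoplasmic retinoic acid binding protein, was above the array median in every striatum array at 1.14, 0.48, 0.62 and 1.33, and in 1 hypothalamus array at 0.41. Like Dlx6, Crabp1 met the filter on low values through striatum, so its low values elsewhere describe the selection. Of 13 tested genes of retinoid handling 6 rose and 1 fell, and the median of 0.29 shows that the rises were concentrated in a few members. Crym, a thyroid hormone binding protein placed on this list, rose by 1.82 on the mean because hypothalamus was low at -1.23 to -0.14. Without hypothalamus its difference was -0.35, and hippocampus exceeded striatum. The gene that fell was Aldh1a2, a retinoic acid synthesis enzyme of meninges, at 0.05, 0.20, -0.15 and 0.14 in striatum and 0.92 to 2.78 elsewhere. Other meningeal genes were low with it, as given below.

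Several of the largest rises were genes outside these lists. Ido1, a tryptophan-degrading enzyme, read 5.74, 5.11, 5.10 and 5.68 in striatum, 1.08 to 1.59 in cortex and below the array median in the 8 hippocampus and hypothalamus arrays, at least 31.2-fold higher (adjusted p = 2.62e-14). Sh3rf2, an SH3 domain ubiquitin ligase, read 4.82, 4.19, 4.65 and 3.91 and was at least 20.1-fold higher. Serpina9, a serine protease inhibitor, read 4.56, 4.59, 4.46 and 4.79 and was at least 19.2-fold higher. Cortex was the only other region above the array median for Serpina9, at 0.44 to 1.32. Ankrd63, an ankyrin repeat protein, was at least 14.2-fold higher, but cortex (4.59 to 5.03) and hippocampus (2.77 to 3.72) were also well above the median, against 6.30, 6.64, 6.48 and 6.63 in striatum and -3.24 to -2.27 in hypothalamus. Dach1, a transcriptional cofactor, had another pattern: it read 5.17, 4.85, 5.04 and 5.26 in striatum and 0.62 to 1.42 in all 12 other arrays, so that the 3 regions were alike and cortex did not come next.

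For 23 genes the striatum arrays were separated and at least 11 of the other 12 arrays lay below the array median. Genes of this kind passed the filter on low values through the striatum arrays, so their low values elsewhere describe the selection. Among all genes called higher, 17 lay below the median in all 12 other arrays and were tested through striatum alone. The 6 largest of the 23 by fold on the bounded scale are given. Clspn, a DNA replication checkpoint protein, read 3.90, 3.79, 3.03 and 3.13 in striatum and -2.58 to -0.38 elsewhere, at least 11-fold higher. Gpx6, a glutathione peroxidase, read 2.96, 2.56, 1.66 and 5.17 in striatum and -2.86 to -1.50 elsewhere. Gpx6 was at least 8.49-fold higher, and its striatum arrays differed among themselves more than those of the other 5 genes. Cd4, a T cell coreceptor also found on other cells, read 2.61, 3.30, 2.58 and 2.37 and was at least 6.57-fold higher. Phex, an endopeptidase, read 2.28, 2.15, 2.52 and 3.36 and was at least 5.97-fold higher. Upb1, which makes beta-alanine from pyrimidines, read 1.61, 1.60, 1.28 and 1.80, and Ptprv, a receptor-type phosphatase, 1.11, 2.51, 1.54 and 1.13. Both were at least 2.97-fold higher. None of the 12 other arrays exceeded the array median for any of the 6, which the rule that picked them nearly required.

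Ion channels and receptors included separated members in both directions. Of 58 tested potassium channel genes 21 rose (36.2%) and 19 fell (32.8%), not far from the 29.2% and 23% of all genes, with a median of -0.11. The rises included the voltage-gated subunits Kcna5 (at least 5.62-fold) and Kcna4 (3.93-fold), the auxiliary subunits Kcnab1 (5.37-fold) and Kcnip2 (3.78-fold), and the leak channel Kcnk2 (3.76-fold). Kcnc4, a fast delayed rectifier, fell 3.97-fold and Kcnj3, an inward rectifier opened by G proteins, 3.45-fold. Of 28 sodium and calcium channel genes 12 rose (42.9%) and 7 fell (25%, near the 23% of all genes). Cacng4 and Cacna2d3, auxiliary subunits, rose 3.50-fold and 3.39-fold. The T-type calcium channel Cacna1g read -2.82, -1.12, 0.10 and -0.05 in striatum and 0.75 to 2.13 elsewhere, at least 2.80-fold lower. Its difference was -3.48 with striatum arrays 1 and 2 alone and -1.48 with arrays 3 and 4 alone. Among 14 serotonin and acetylcholine receptor genes 4 rose (28.6%, near the 29.2% of all genes) and 6 fell (42.9%, against 23%). Htr1b read 6.57, 6.70, 6.52 and 6.57 in striatum and 3.02 to 3.95 elsewhere, 8.20-fold higher. Htr1d was at least 5.92-fold higher, whereas Htr7 fell 2.17-fold.

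For GABA, the transmitter of projection neurons, 9 of 15 tested genes rose and 5 fell. The synthesis enzyme Gad1 read 9.14, 9.06, 9.33 and 9.19 in striatum and 8.58 to 8.81 in cortex, 2.08-fold above the mean of the regions. The vesicular transporter Slc32a1 read 5.98, 6.17, 6.14 and 5.67 and rose 3.58-fold, a log2 difference of 1.84 that was 0.38 with all its probe sets averaged. Receptor subunits moved in opposite directions. Gabrd rose at least 5.85-fold and Gabra4 2.14-fold, while Gabra5 fell 2.73-fold. Gabrd was near cortex, at 5.15, 5.02, 4.71 and 4.84 against 4.03 to 4.27 there, a difference not called in that comparison (0.83, adjusted p = 0.144). Of 25 glutamate receptor and transporter genes 11 rose (44%) and 7 fell (28%), against 29.2% and 23% of all genes. The metabotropic receptor gene Grm5 rose 2.38-fold, and Grm3 and the kainate subunit Grik2 2.06-fold and 2.07-fold. Grm2, which sits on cortical terminals, read 0.11, 0.27, 0.30 and 0.76 in striatum and 0.96 to 3.71 elsewhere, 4.97-fold lower. Grik1 fell 3.29-fold.

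**Figure D4:**
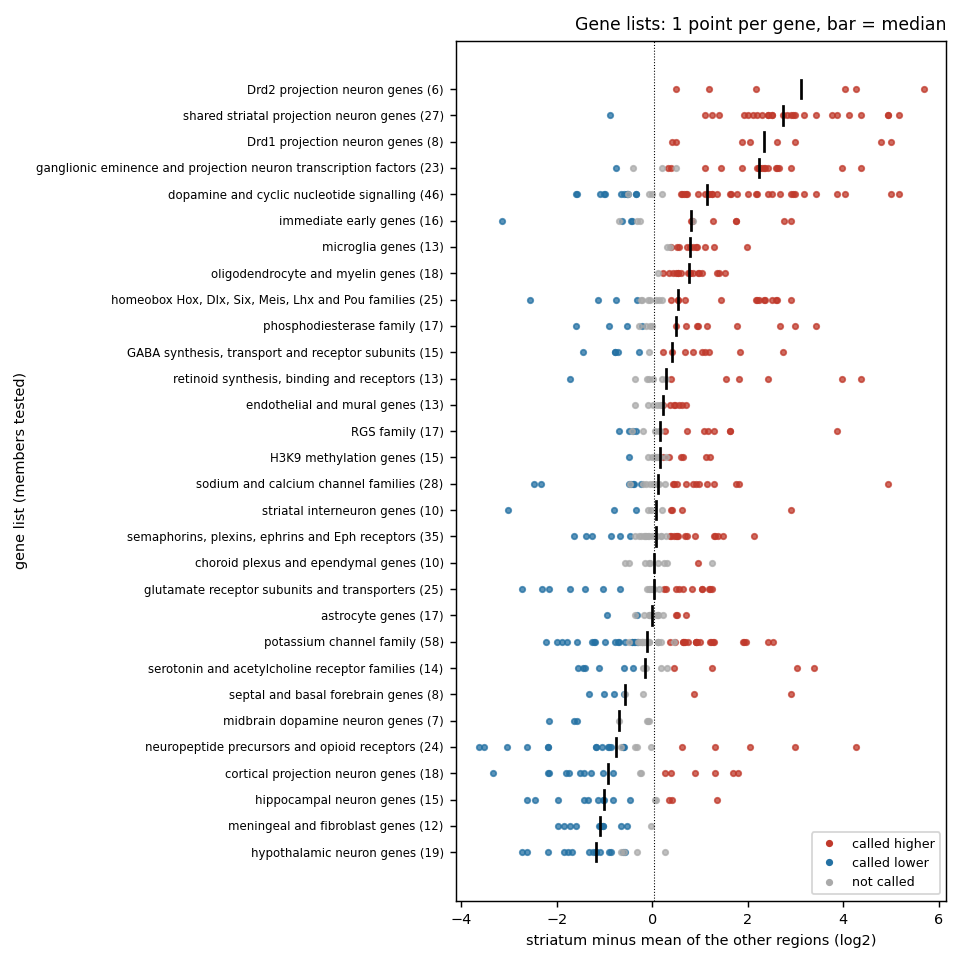
Striatum minus the mean of the other regions (log2, horizontal axis) for members of 30 gene lists that were tested, 1 point per gene; red points were called higher, blue lower and grey not called, black bars are list medians, and the dotted line is the median of all genes. Projection neuron lists lie to the right, with medians from 2.34 to 3.11, and hypothalamic and meningeal lists to the left, at -1.18 and -1.09.

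The 10 largest falls were of varied function. Tafa1, a secreted protein of cortical neurons, read -0.02, 0.04, 1.81 and 1.68 in striatum, 5.77, 5.76, 5.62 and 5.29 in hippocampus, 4.27, 4.33, 4.00 and 4.00 in hypothalamus and 4.50, 4.77, 4.42 and 4.72 in cortex. All striatum arrays were lowest, and the difference was -3.91 ± 0.26 (SE, n = 4 per region), at least 15-fold, with adjusted p = 6.87e-10. Nrn1, which promotes neurite growth, read 2.15, 1.44, 3.21 and 3.66 in striatum and 4.60 to 6.93 elsewhere, 11.8-fold lower. Neurod1, a proneural transcription factor, read -0.65, -0.46, 0.31 and 0.67 and was at least 8.27-fold lower. For each of these 3 genes striatum arrays 3 and 4 were above arrays 1 and 2, as were the cortical genes. With arrays 1 and 2 alone the differences were -4.78, -4.38 and -3.85, and with arrays 3 and 4 alone -3.04, -2.74 and -2.80. Slc17a6, a vesicular glutamate transporter, read 3.65, 2.18, 3.57 and 3.88 in striatum and 7.65 to 8.24 in hypothalamus, 6.66-fold lower than the mean of the regions. Syt17, a synaptotagmin, fell 5.75-fold and Cabp7, a calcium-binding protein, 6.09-fold. Nectin3, an adhesion molecule, fell 6.69-fold in its highest probe set, while 1 of 4 other tested probe sets differed the other way by 0.10.

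Of 18 tested genes of cortical projection neurons 10 fell (55.6%) and 6 rose (33.3%), against 23% and 29.2% of all genes. Their median was -0.92. Slc17a7, the main vesicular glutamate transporter of cortex, read -0.71, 0.32, 1.72 and 1.61 in striatum and 5.17, 5.08, 5.46 and 5.25 in cortex. Against cortex alone it fell by 4.50 (adjusted p = 8.47e-08), and against the mean of the regions by 2.17 because hypothalamus was also low. Its difference was -3.10 with striatum arrays 1 and 2 alone and -1.24 with arrays 3 and 4 alone. Neurod6 fell by 2.17 with all arrays, by 3.32 with arrays 1 and 2 alone and by 1.02 with arrays 3 and 4 alone. Without hippocampus its difference was -0.43 and was not called (adjusted p = 0.329). Tbr1, a deep-layer cortical factor, read 1.37, 1.55, 2.70 and 4.00 and fell by 1.03, with -1.98 from arrays 1 and 2 alone and -0.09 from arrays 3 and 4 alone. Without cortex its difference was 0.27 (adjusted p = 0.501), since hypothalamus was lower still. Members that rose included Itpka, an inositol phosphate kinase, by 1.80, which without hypothalamus was -0.27, and Tle4, a corepressor, which rose 2.49-fold and was separated.

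Of 15 tested hippocampal genes 10 fell and 3 rose, and of 19 tested hypothalamic genes 15 fell and 0 rose. The complement-like synaptic protein C1ql3 fell 5.46-fold, with striatum arrays 1 and 2 at 3.67 and 3.81 and arrays 3 and 4 at 5.38 and 5.56, and its difference was -3.31 from the former alone and -1.59 from the latter. Pmch, the precursor of a hypothalamic feeding peptide, fell by 2.17 on the mean, from the hypothalamus alone: it read 8.50 to 9.06 there, and without hypothalamus the difference was 0.50 (adjusted p = 0.321). Esr1, an estrogen receptor, was lower than every other array at -0.35, 0.16, 0.87 and 0.79, at least 3.40-fold. Genes of neuropeptides and opioid receptors leaned down against the mean of the regions. Of 24 tested, 5 rose, led by Penk, Pdyn and Tac1, and 15 fell (62.5%, against 23% of all genes). Their mean level was 1.84 in striatum, 1.68 in hippocampus, 2.59 in cortex and 3.14 in hypothalamus, so striatum was not below hippocampus. Vip read 1.13, 0.99, 1.82 and 2.73 in striatum and 2.87 to 5.94 elsewhere, 8.28-fold lower. Adcyap1, the precursor of PACAP, read -1.40, -1.02, -1.05 and -0.68 and was at least 5.61-fold lower. Grp, gastrin-releasing peptide, read -2.07, -1.82, 1.37 and -0.36 in striatum and 1.53 to 4.89 elsewhere, at least 5.94-fold lower. Its difference was -4.86 with striatum arrays 1 and 2 alone and -2.41 with arrays 3 and 4 alone. Cck fell 4.55-fold on the mean, at 4.21, 3.81, 5.09 and 6.29, and overlapped hypothalamus at 4.16 to 5.75. Its difference was -3.03 with striatum arrays 1 and 2 alone and -1.34 with arrays 3 and 4 alone.

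Immediate early genes, transcribed quickly after neuronal activity, did not move as 1 group. Of 16 tested, 8 rose (50%) and 4 fell (25%), against 29.2% and 23% of all genes. Egr3 read 7.09, 7.18, 7.34 and 7.10 in striatum, 6.20 to 6.73 in hippocampus and cortex and -0.28 to 0.26 in hypothalamus. Its at least 7.20-fold difference from the mean came mostly from hypothalamus, and without that region the difference was 0.71. Egr2 read 3.67, 4.22, 4.13 and 2.84 and was at least 6.13-fold higher, and Homer1, whose short form is induced by activity, rose 3.39-fold. Bdnf, a neurotrophin that striatum receives from cortical axons, read -1.46, -1.50, -0.06 and 0.39 in striatum, 3.05 to 3.47 in hippocampus, 1.40 to 2.10 in hypothalamus and 2.15 to 2.57 in cortex. It was at least 5.24-fold lower (adjusted p = 1.30e-08), by 3.97 with striatum arrays 1 and 2 alone and by 2.32 with arrays 3 and 4 alone. Among 15 genes of histone H3 lysine methylation and demethylation of the kind G9a and GLP act on, 6 rose (40%, against 29.2% of all genes) and 1 fell, and the separated members included the demethylase gene Kdm3a, at 4.98, 4.87, 4.77 and 4.70 against 3.20 to 4.20 elsewhere (2.19-fold).

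Markers of striatal interneurons went both ways: 4 of 10 rose (40%) and 3 fell (30%), against 29.2% and 23% of all genes, and differences ran from -3.03 to 2.91. Chat, the synthesis enzyme of cholinergic cells, was below the filter on low values with 3 other members, and was not tested. Lhx8, a homeobox gene of cholinergic neurons, read 4.60, 4.53, 4.46 and 4.50 in striatum. The other regions scattered, from -1.18 in 1 hippocampus array to 3.93 in 1 hypothalamus array, and Lhx8 was at least 6.37-fold higher (adjusted p = 0.000143). Calb2, a calcium-binding protein of interneurons and thalamic cells, fell 8.16-fold on the mean, with striatum at 1.13, 1.27, 2.75 and 1.91 and 1 cortex array at 2.39. Against single regions, Calb2 was 2.86 below hippocampus and 1.77 below cortex. Without hypothalamus its difference was -2.31 in place of -3.03, so its fall was larger against hypothalamus.

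Genes of non-neuronal cells differed as well, by less in the median than the lists of striatal projection neurons. In whole tissue, fewer cells of a type and less RNA per cell cannot be told apart. Of 18 tested oligodendrocyte and myelin genes 17 rose (94.4%) and 0 fell, with a median of 0.77. The list mean was 5.86 to 6.09 in striatum, 5.25 to 5.71 in hippocampus, 5.09 to 5.49 in hypothalamus and 4.90 to 5.14 in cortex. Mog, a myelin surface protein, read 5.97, 5.34, 5.93 and 5.80 in striatum and 3.29 to 4.99 elsewhere, 2.57-fold higher, and Mag, another, 2.63-fold higher. Of 13 microglia genes 11 rose and 0 fell, with a median of 0.79. Cx3cr1, the fractalkine receptor, read 5.35, 5.13, 5.26 and 5.66 in striatum and at most 4.56 elsewhere, 2.47-fold higher, and the lysosomal gene Cd68 was at least 3.67-fold higher. Of 17 astrocyte genes 3 rose and 2 fell, with a median of 0.00. Their mean in striatum, 5.15 to 5.38, lay above cortex at 4.81 to 4.94 and below or level with hippocampus at 5.37 to 5.59, so that the regions averaged out. Endothelial and mural genes rose in 7 of 13 with a median of 0.22. Of 7 tested genes of midbrain dopamine neurons 0 rose and 3 fell. Their mean was 1.49 in striatum, 1.38 in hippocampus, 1.66 in cortex and 4.13 in hypothalamus. Without hypothalamus none of the 3 falls was called: Slc6a3 -0.52, Slc18a2 -0.475 and Foxa1 -0.19 (adjusted p = 0.41, 0.101 and 0.54). Of 8 septal and basal forebrain genes 2 rose (25%) and 4 fell (50%), against 29.2% and 23% of all genes. Among 35 semaphorins, plexins, ephrins and Eph receptors, the guidance molecules of axons, 14 rose (40%) and 6 fell (17.1%), against 29.2% and 23% of all genes, with Sema3a 4.37-fold higher. Choroid plexus genes were called in 1 of 10 with their wide spread between striatum arrays. Of 12 meningeal and fibroblast genes 11 fell and 0 rose: their mean was 1.11 to 1.35 in striatum, 3.04 to 3.16 in hippocampus, 1.97 to 2.41 in hypothalamus and 1.49 to 2.20 in cortex. Dcn, a matrix proteoglycan, read 2.30, 1.91, 1.86 and 1.99, close to cortex at 1.45 to 2.12 and below hippocampus at 4.59 to 5.28. Whether the amount of meninges in each sample bears on these values was not tested.

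Genes high in striatum were not low to the same degree in the 3 regions. Cortex was the next highest region for 386 of the 916 separated genes (42.1%), hippocampus for 362 (39.5%) and hypothalamus for 168 (18.3%). Among the 33 genes with rises of at least 8-fold, cortex came next for 28 (84.8%). For the 27 shared projection neuron genes, the median level in cortex was 32% of that in striatum, against 16.6% in hippocampus and 7.08% in hypothalamus. Single genes varied: cortex held 15.4% of the striatal level for Ppp1r1b, 15.5% for Drd1, 14.9% for Drd2, 8.28% for Syndig1l and 48.8% for Arpp21. In separate arrays of G9a controls the median for cortex was 22.4%, and for GLP mutants 26.7%. Without cortex the differences grew, to 6.88 for Gpr6, 6.17 for Drd1 and 5.29 for Penk.

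The same contrast was measured again in arrays that share none with the first. In G9a controls 3880 genes were higher in striatum (32.4% of 11968 tested) and 3090 lower (25.8%), and in GLP mutants 3586 (29.5% of 12171) and 3264 (26.8%), 56.3% in either direction. Of the 916 genes with striatum arrays above all others, 908 were tested in G9a controls, 888 had the same direction and 840 were called in it (92.5%), while 4 were called in the opposite direction. In GLP mutants 909 were tested and all 909 had the same direction, with 902 called (99.2%). Of the 473 genes below, 423 of 469 were called again in G9a controls (90.2%) and 466 of 472 in GLP mutants (98.7%). The differences correlated across genes at 0.873 with G9a controls (11789 genes) and 0.952 with GLP mutants (11985 genes), and genes are not independent replicates. Gpr6 and Drd1 kept similar sizes. Gpr6 differed by 5.69 in GLP controls, 5.43 in G9a controls and 5.38 in GLP mutants, and Drd1 by 5.01, 5.32 and 4.79. Not all named genes did so: Pdyn in hypothalamus was at 6.49% of its striatal level in GLP controls and 41.1% in G9a controls. Some falls were deeper in G9a controls, where Tafa1 differed by -5.65 and Neurod6 by -5.22, against -3.91 and -2.17. The difference between the 2 control cohorts was not tested.

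**Figure D5:**
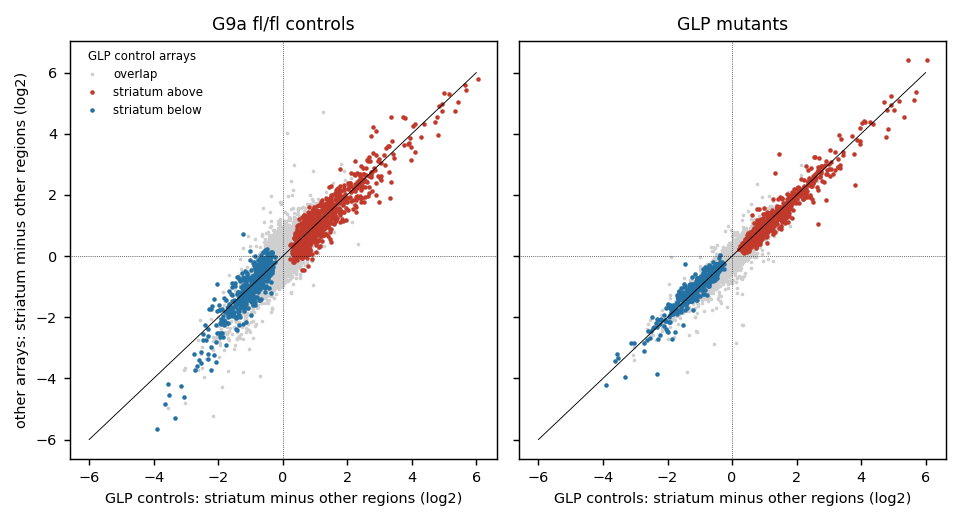
Log2 difference of striatum from the mean of the other regions in G9afl/fl controls (left) and in GLP mutants (right), vertical axes, against the same difference in GLP controls (horizontal axis), 1 point per gene; red and blue mark genes whose 4 striatum arrays lay above or below all others in GLP controls, and the line marks equality. Points follow the line more closely in GLP mutants (correlation 0.952) than in G9a controls (0.873).

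Whether the contrast itself differed between GLP mutants and controls was tested in 1 fit of their 32 arrays. Of 12419 genes 41 passed (0.33%): 21 had a greater striatum difference in mutants (0.169%) and 20 a smaller one (0.161%). None of the 20 largest rises or 10 largest falls was among them; the smallest adjusted p of these 30 was 0.115, for Clspn. Of the 6 genes with the smallest p, 4 were below the filter in controls, and Gbe1 and Plce1 were 0.76 and 0.59 higher in control striatum, overlapping other regions. Ttn, the giant sarcomere protein titin, read -0.76, -0.74, -0.98 and -0.45 in control striatum and 3.63 to 3.94 in mutant striatum. Its contrast differed by 3.80 (adjusted p = 6.09e-13). Il17rc, an interleukin receptor subunit singled out after its values were seen, had the next smallest p. It was separated in controls, with a mean of 1.46 in striatum and means below the array median elsewhere, and had a mean of -0.05 in mutant striatum, a contrast difference of -1.51 (adjusted p = 1.65e-06). Of the 916 genes with striatum above all others, 4 passed this test (0.437%, against 0.24% of the 12090 tested in controls). They were Il17rc, Abcc12 (contrast difference 1.88), Cnr1 (-0.52) and Fst (-1.60). Of the 473 below, 2 passed (0.423%), Gabrb1 and Pkib.

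Most genes tested, whether high or low in striatum, were above the array median in ribosome-bound mRNA of the projection neurons. Of the 916 separated genes 900 (98.3%) were above the array median in all 3 D1-class control samples and 902 (98.5%) in all 3 D2-class control samples, against 92.3% and 92.5% of all genes tested. Of the 473 genes low in striatum 428 (90.5%) and 419 (88.6%) were above it. Gpr6 had a mean of 8.46 in D2-class and 7.15 in D1-class samples and Penk 9.23 and 8.16, whereas Tac1 was at 8.95 and 9.76 and Pdyn at 3.09 and 4.78. Ranges over the 3 samples of each kind did not overlap for these 4 genes, which were picked from the class lists. The share of all genes tested without such overlap was not counted. Mog, an oligodendrocyte gene, was also above the median there, at 6.03 in D2-class and 5.07 in D1-class samples, and its ranges of 5.58 to 6.51 and 4.68 to 5.82 overlapped. The receptor genes themselves differed in how they divided: Drd2 had a mean of 6.79 in D2-class and 3.96 in D1-class samples, without overlap. The mean of Drd1 was 8.46 in D2-class and 8.11 in D1-class samples, so Drd1 was not higher in the D1-class samples.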

How the data were processed

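RNA was extracted from dissected regions, amplified in 2 cycles and hybridised to Affymetrix mouse arrays, per the labels' protocols. The authors deposited linear intensity values computed with GCRMA, per the submitters' processing notes (the sources used here give no version, no joint processing of arrays and no scan dates). The lowest deposited intensity was 0.0271 and every array's median was 1, so log2 values of the deposited intensities are relative to that median. Probe sets with 1 symbol (34945 of 45101) named 18193 genes; 932 had several symbols and 9160 were unnamed. Each gene was read from 1 probe set, that with the highest average on the 16 arrays, and was tested where log2 exceeded 0 in at least 4 of them. The tool for the fit of group means was limma 3.58.1 under R 4.3.3 (eBayes with trend, Benjamini-Hochberg at 0.05), with each repeat comparison in a fit of its own arrays; the code was tested on simulated data. "At least N-fold" sets values below an array's median to it.

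Named genes were the 20 largest rises and 10 largest falls among genes whose striatum arrays were separated from all others, passing over clone names, members of 30 gene lists, up to 6 separated genes below the median in at least 11 of the 12 other arrays, and the 6 smallest p-values of the mutant comparison. Of 652 list members 35 were not named here. Members, lists and tests were chosen with earlier results of these data known. Same-numbered arrays of different regions deviated together in 22 of 24 pairs (correlation over 0.1), which did not settle that they share animals, so the fit has no block. No pair of the 71 arrays held near-identical values (highest correlation 0.998). The number of arrays limits the precision. Alternatives covered the filter, low values, scaling, probe set choice, the fit, the regions and each array left out.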

Additional observations from a re-analysis of the deposited data

Results flagged for a closer look

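In 13 of 260 groups of 4 arrays checked, 1 array lay far from the other 3, a number that equals the 1 in 20 that chance gives. For single genes, Drd1 was high in hypothalamus array 4 at 1.82 (others 1.36 to 1.43), Slc35d3 low in striatum array 1 at 5.61 (others 5.76 to 5.78) and Lrrc10b low in cortex array 2 at 2.75 (others 3.19 to 3.28). Vip was low in hippocampus array 4 at 3.92 (others 4.42 to 4.50). Below the array median, Gpx6 was high in hippocampus array 2 at -2.36, Cd4 in hippocampus array 1 at -0.68 and Ptprv in hypothalamus array 2 at -0.50. For list means, dopamine and cyclic nucleotide genes were high in hippocampus array 1 at 4.64, and retinoid genes low in striatum array 3 at 2.86 (others 2.94 to 2.95). Hippocampal genes were high in hypothalamus array 3 at 1.44 (others 1.10 to 1.12) and oligodendrocyte genes in cortex array 3 at 5.14 (others 4.90 to 4.92). Meningeal genes were high in hypothalamus array 1 at 2.41 (others 1.97 to 2.02), and RGS genes low in hippocampus array 2 at 3.68 (others 3.75 to 3.76).

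The striatum contrast differed between GLP mutants and controls for 6 genes named by their smallest p (limma, 4 arrays per group). Mean log2 levels in striatum went from -0.73 in controls to 3.75 in mutants for Ttn (contrast difference 3.80), and from -1.99 to 3.48 for Corin, a natriuretic peptide protease (4.03). Cd2, a lymphocyte adhesion molecule, was at -2.76 and 0.35 (2.56, and 0.35 with adjusted p = 0.146 when values below the array median were set to it). The others kept their call in every setting tried. Pdlim3, a muscle LIM protein, was at -0.61 and 1.56 (2.11). Gbe1, the glycogen branching enzyme, was at 1.60 and 3.71 (1.59), and Plce1, a phospholipase, at 3.54 and 5.13 (1.11).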

How the results depend on the processing

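Of 173 genes followed over up to 31 settings, 158 kept direction and call in all of them, 11 lost the call in some and 5 reversed. The 5 reversals came with a region left out: Tbr1 0.27 without cortex, and Itpka -0.27, Crym -0.35, Chrm1 -0.21 and Pmch 0.50 without hypothalamus. With all probe sets of a gene averaged, 25 of 160 genes moved by over 1.5 times, 24 of them with the same direction and call: Slc32a1 to 0.38, Adcy5 to 0.81, Tac1 to 0.82, Grik3 to 0.50, Nectin3 to -1.07, Gabrd to 1.13, Egr3 to 1.30, Meis1 to 1.25, Arpp21 to 1.54, Htr1b to 1.57, Cd4 to 1.83, Sema3a to 1.08, Kcnip2 to 1.16, Gnb5 to 0.94, Pde1a to -0.91, Esr1 to -1.07, Dcn to -1.06, Gnas to -0.72 and Tle4 to 0.87 among them. With no filter 3847 genes were higher and 5053 lower. Centring or quantile normalization turned the split to 2962 and 3620, or 3135 and 3328; the cause was not tested. Leaving out each array gave 3186 to 3767 higher and 2339 to 2886 lower. Against cortex the ranges were 3978 to 4543 and 2676 to 3155, against hippocampus 2137 to 2654 and 2290 to 2900, and against hypothalamus 4198 to 4431 and 3463 to 3846. In G9a controls they were 3501 to 4023 and 2769 to 3187, and in GLP mutants 3111 to 3757 and 2705 to 3406. The mutant comparison moved most: 49 higher with no filter, 48 higher and 54 lower with values below the median set to it, and 12 to 30 higher and 9 to 33 lower with each array left out. It gave 12 higher without striatum mutant array 4 and 13 without striatum control array 2. Lower genes numbered 33 without hippocampus control array 1, 10 and 13 without striatum control arrays 1 and 2, and 31, 9 and 9 without striatum mutant arrays 1, 3 and 4. Chosen after seeing the data, striatum arrays 1 and 2 alone gave 2592 higher and 2466 lower, and arrays 3 and 4 alone 3079 and 1953. With the replicate number as a block 3632 genes were higher and 2858 lower; in 41 of 48 checks of an array against another region it correlated best with its own number, a hint from the data and not from the design. Genes near an array's median are limited by signal over background.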
